A study of Homo sapiens with 6 samples.

Results

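The transcripts of 46 lysosomal genes were followed in 22Rv1 cells, a human prostate carcinoma epithelial line, to ask whether a rise of LAMP3 was accompanied by other genes of the same organelle. The genes were listed by symbol among the 29804 symbols of the count table and comprise 7 membrane proteins, 11 proteases, 10 glycosidases, 4 sulfatases, 6 genes of lipid handling, 4 proton pump subunits, 2 transcription factors and 2 sorting receptors. All 46 were found, and 45 passed the filter on low counts and were tested. The protease gene CTSS had at most 1 read in any library and did not pass.

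RNA was sequenced in 3 groups of 2 biological replicates, all labelled with the genotype WT. The WT group was untreated and harvested at week 0, and the age matched (AM) group was cultured for 6 weeks without treatment. The 6WP group was also cultured for 6 weeks. On each week day it received 1 µg/ml of phleomycin, a radiomimetic that breaks DNA, for 1 hour. The design thus separates time in culture (AM against WT) from treatment at equal time (6WP against AM), while 6WP against WT holds both. All cells come from 1 line, and the 3 comparisons share libraries, so they are not independent of each other.

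Lysosomes are acidic compartments that degrade proteins, glycans, sulfated polysaccharides and lipids. Their membrane is lined with glycosylated LAMP proteins, their lumen is acidified by the V-ATPase proton pump, and many of their hydrolases are delivered by mannose 6-phosphate receptors. The transcription factors TFEB and TFE3 bind a sequence built around CACGTG in the promoters of many lysosomal genes. LAMP3, also called DC-LAMP, is found in mature dendritic cells and in several carcinomas, and its transcript is known to respond to hypoxia, interferon and stress of the endoplasmic reticulum.

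Promoter sequence from RefSeq, covering 250 bases before to 50 bases after the annotated start in GRCh38.p14, was matched for 31 of the 46 genes. The letters CACGTG, a palindrome that reads the same on both strands, were present in 9 of the 31 promoters (29.0%), compared with 7.44% of all 27305 promoters of that length. The longer form TCACGTGA, which contains CACGTG and so is counted within it, was present in 5 of the 31 (16.1%) and in 1.04% of all promoters. These 5 belong to LAMP1, MCOLN1, GAA, CTSA and ATP6V0D1. CACGTG without the longer form was found in CD63, CTSD, CTSF and NEU1. The letters TGATGNAA, searched on both strands as the core of the element bound by ATF4, were present only in M6PR among the 31 (3.23%) and in 3.67% of all promoters. No promoter was matched for LAMP2, LAMP3, CTSB, CTSK, CTSS, HEXA, MANBA, NAGLU, ARSA, SGSH, ASAH1, PSAP, ATP6V1A, ATP6V1B2 and ATP6V1H.

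The stretches that hold TCACGTGA in these genes, whose expression is given further on, are shown with every CACGTG in capitals. They lie upstream of the start annotated by RefSeq, except that the LAMP1 stretch runs a few bases past it. The GENCODE spans used for gene positions begin elsewhere for CTSA, GAA and ATP6V0D1, and the CTSA stretch lies wholly, the others partly, within them. LAMP1 (chr13:113297039-113297248, plus strand) held 6 copies in 210 bases. MCOLN1 (chr19:7522534-7522623, plus strand), GAA (chr17:80101491-80101580, plus strand) and CTSA (chr20:45891245-45891334, plus strand) held 2 copies each in 90 bases, and ATP6V0D1 (chr16:67481158-67481247, minus strand) held 1 copy in 90 bases.
LAMP1: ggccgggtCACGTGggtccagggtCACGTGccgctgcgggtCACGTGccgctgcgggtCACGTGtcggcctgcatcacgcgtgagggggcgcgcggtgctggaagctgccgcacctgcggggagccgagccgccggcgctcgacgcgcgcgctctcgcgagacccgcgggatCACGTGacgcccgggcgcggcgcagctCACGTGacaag
MCOLN1: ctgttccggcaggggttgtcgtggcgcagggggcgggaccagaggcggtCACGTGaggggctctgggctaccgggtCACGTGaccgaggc
GAA: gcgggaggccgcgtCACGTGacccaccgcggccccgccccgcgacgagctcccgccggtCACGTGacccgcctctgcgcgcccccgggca
CTSA: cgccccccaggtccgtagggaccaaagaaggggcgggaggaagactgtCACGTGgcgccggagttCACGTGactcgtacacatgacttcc
ATP6V0D1: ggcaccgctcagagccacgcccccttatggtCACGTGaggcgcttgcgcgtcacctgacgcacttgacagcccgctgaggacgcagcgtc
A match describes these letters only, and binding was not measured.

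Library totals ranged from 21222201 to 35311945 counts, and 3 counts corresponded to 0.0850 to 0.141 CPM (counts scaled to the library total), a limit that covers counting error only. The 46 genes together took between 0.469% and 0.486% of the counts in each of the 6 libraries. All 8 markers of the prostate epithelial line reached 1 CPM, with summed levels between 1472 and 2620 CPM. The 6WP libraries differed more from each other than did those of the other groups. Over all tested genes, 25.1% differed by more than 0.5 log2 CPM between the 6WP libraries, compared with 7.84% in WT and 8.87% in AM.

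LAMP3 was higher in 6WP cells than in either control group. Its level in TMM normalised CPM was 0.759 and 0.551 in WT, 1.81 and 3.33 in AM, and 34.2 and 8.11 in 6WP cells, from 17, 12, 42, 113, 945 and 230 reads. The groups did not overlap in any comparison, but the 6WP replicates differed from each other by 2.07 on the log2 scale, the largest such difference among the tested genes of the list. Group means (± SD, n = 2) were 0.655 ± 0.147 CPM for WT, 2.57 ± 1.07 CPM for AM and 21.1 ± 18.4 CPM for 6WP. The edgeR quasi-likelihood test, with Benjamini-Hochberg adjustment over all 14672 tested genes, gave a log2 fold change of 5.0 for 6WP against WT (SE 0.77, 95% interval 3.24 to 6.76, adjusted p = 0.0192). For 6WP against AM the same edgeR test gave 3.01 (SE 0.63, 95% interval 1.57 to 4.45, adjusted p = 0.0155). For AM against WT it gave 1.99 (SE 0.83, 95% interval 0.07 to 3.91), and this did not pass the threshold of 0.05 (edgeR adjusted p = 0.131). LAMP3 is encoded on the minus strand at chr3:183122215-183163839 (ENSG00000078081.8, hg38), and none of its exons overlaps an exon of another annotated gene.

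The LAMP3 calls depended on which libraries were fitted. For 6WP against WT, the log2 fold change stayed between 3.60 and 5.67 when any 1 library was left out, but the edgeR adjusted p was 0.279 without WT replicate 1, 0.227 without WT replicate 2, 0.0520 without AM replicate 1 and 0.0535 without AM replicate 2. It was 0.0573 when only the WT and 6WP libraries were fitted. The log2 fold change was 3.60 without 6WP replicate 1 and 5.67 without 6WP replicate 2. With 1 library left in that group, the gap between the 6WP replicates drops out of the fit. These 2 fits therefore cannot show whether the call holds. For 6WP against AM, the log2 fold change was 1.61 without 6WP replicate 1 and 3.65 without 6WP replicate 2. It was 2.67 without AM replicate 1 and 3.55 without AM replicate 2, and the call was lost in both of these. AM against WT passed the threshold when the more variable 6WP libraries were taken out of the fit, with a log2 fold change of 1.99 and an edgeR adjusted p of 0.000216. An exact permutation test of 2 against 2 libraries cannot go below p = 0.333 and was not used.

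Divided by the length of the canonical transcript, LAMP3 was one of the least abundant transcripts of the list in untreated cells. At 0.205 CPM per kb in WT it ranked 45 of 46, next to CTSK at 0.336, whose libraries overlapped it, while CTSS was lower. In AM cells LAMP3 stood at 0.803 CPM per kb, close to IDUA at 0.849, and their libraries overlapped. In 6WP cells it reached 10.7 and 2.54 CPM per kb in the respective libraries, a mean of 6.61 and rank 37. The mean levels of TFEB, SORT1, CTSC, MANBA, HEXA, ARSA, MCOLN1, SGSH, NPC1, SMPD1, TFE3, NAGLU and IDS lay between these libraries. At the other end of the WT order were the tetraspanin CD63 (745 CPM per kb), the sphingolipid activator precursor PSAP (256), and the aspartyl protease CTSD (86.1).

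Markers of dendritic cells and of macrophages were low in all libraries. LAMP3 itself stood at 0.759 and 0.551 CPM in WT, below the summed dendritic cell markers there. In AM and 6WP libraries it was above them. Of 7 dendritic cell markers, ITGAX, CCL17 and CD1C had no read in any library, CD83 alone passed 1 CPM, and the summed level was 1.03 to 1.75 CPM for WT, 0.560 to 0.795 CPM for AM and 0.904 to 1.02 CPM for 6WP libraries. None of 7 macrophage markers reached 1 CPM, and their sum was at most 0.362 CPM in any library. PTPRC, CD163, MARCO and TYROBP had no read.

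**Figure D1:**
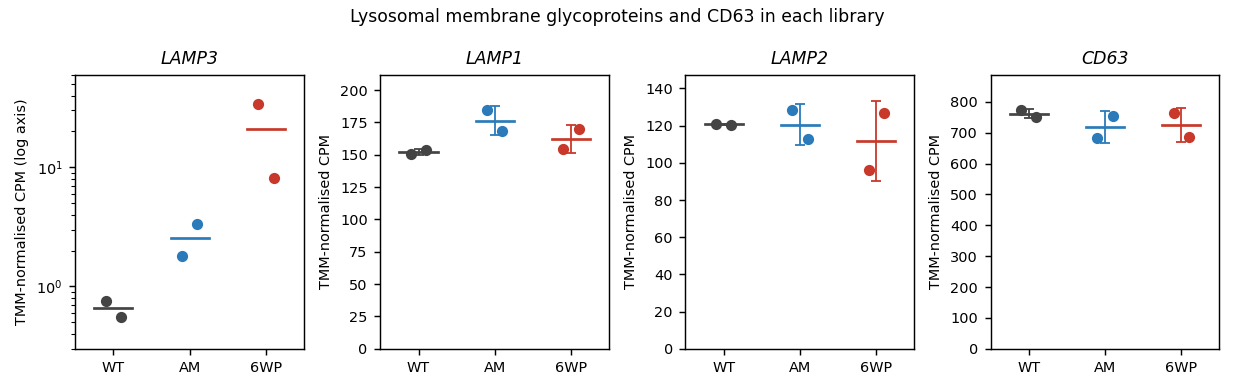
TMM normalised CPM of LAMP3 (log axis), LAMP1, LAMP2 and CD63 (linear axes from 0) in each library of the WT, AM and 6WP groups. Points are libraries, horizontal bars are means and error bars are SD (n = 2, not drawn for LAMP3). LAMP3 rises from under 1 CPM in WT to 34.2 and 8.11 CPM in 6WP cells, whereas LAMP1 lies between 150 and 184 CPM, LAMP2 between 96.4 and 128 CPM and CD63 between 682 and 772 CPM.

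In 6WP against WT, no other gene of the list passed the threshold beside LAMP3. Among the 45 tested genes, LAMP3 was the only one called higher (background over all tested genes, 1.63%), and 0 were called lower (background 1.37%). The change of LAMP3 in this comparison was known when the list was made, so its call is no finding about the list. At an unadjusted p under 0.05, edgeR gave 4 genes higher and 5 lower, against 11.3% and 11.0% of all tested genes. The Wald test of DESeq2 called 2 higher, LAMP3 and ARSA, and 0 lower, and it called 7.59% of all tested genes. The list had a median log2 fold change of 0.018, and all tested genes had one of 0.013. Without LAMP3, the values ran from -0.67 for GLA to 0.56 for ARSA, and for 41 of these 44 genes the 95% interval lay within 1 log2 unit of 0. The exceptions were CTSK, GLA and IDUA. These counts rest on a fit in which the 6WP pair widened the spread. With 6WP replicate 1 left out, 14 genes passed, with 6WP replicate 2 left out 10 did, and only ARSA and LAMP3 passed in both. In those fits 25.2% and 26.0% of all tested genes passed. With 1 WT or 1 AM library left out, the median log2 fold change of the list ran from -0.02 to 0.02.

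More of the genes differed in the comparisons with AM cells, at shares near those of all tested genes. In 6WP against AM, 4 were higher (CTSF, LAMP3, MAN2B1 and SCARB2, background 11.7%) and 5 were lower (ATP6V0D1, ATP6V1H, CTSA, GLA and M6PR, background 9.68%). The rise of LAMP3 in the same 6WP libraries was known when the list was made, so its call is no finding here either. In AM against WT, 4 were higher (ATP6V0D1, ATP6V1H, NEU1 and SMPD1, background 7.74%) and 4 were lower (CTSF, GUSB, MAN2B1 and MANBA, background 9.93%). The median log2 fold change of the list was -0.11 for 6WP against AM (all genes 0.05) and 0.10 for AM against WT (all genes -0.0023). ATP6V0D1, ATP6V1H, CTSF and MAN2B1 appear in both comparisons, which share the AM libraries. For 6WP against AM, 0 genes of the list passed without AM replicate 1 or AM replicate 2, where 1.18% and 0.775% of all tested genes did. Without WT replicate 1 or WT replicate 2, 5 passed (8.51% and 8.80% of all genes), and the same number passed when only the 2 groups were fitted (9.07% of all genes). The calls of SCARB2, CTSA, ATP6V1H and M6PR were lost in each of these fits. With 6WP replicate 1 left out 27 passed (45.8% of all genes), and with 6WP replicate 2 left out 16 passed (33.4%). For AM against WT, 0 passed without WT replicate 1, WT replicate 2, AM replicate 1 or AM replicate 2, where between 0.448% and 0.902% of all genes did. Without 6WP replicate 1, 19 passed (43.9% of all genes), without 6WP replicate 2, 21 passed (44.7%), and with only the 2 groups fitted 20 passed (46.5%). Each call of the 46 genes in these comparisons was thus lost when 1 library of the untreated groups compared was left out.

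**Figure D2:**
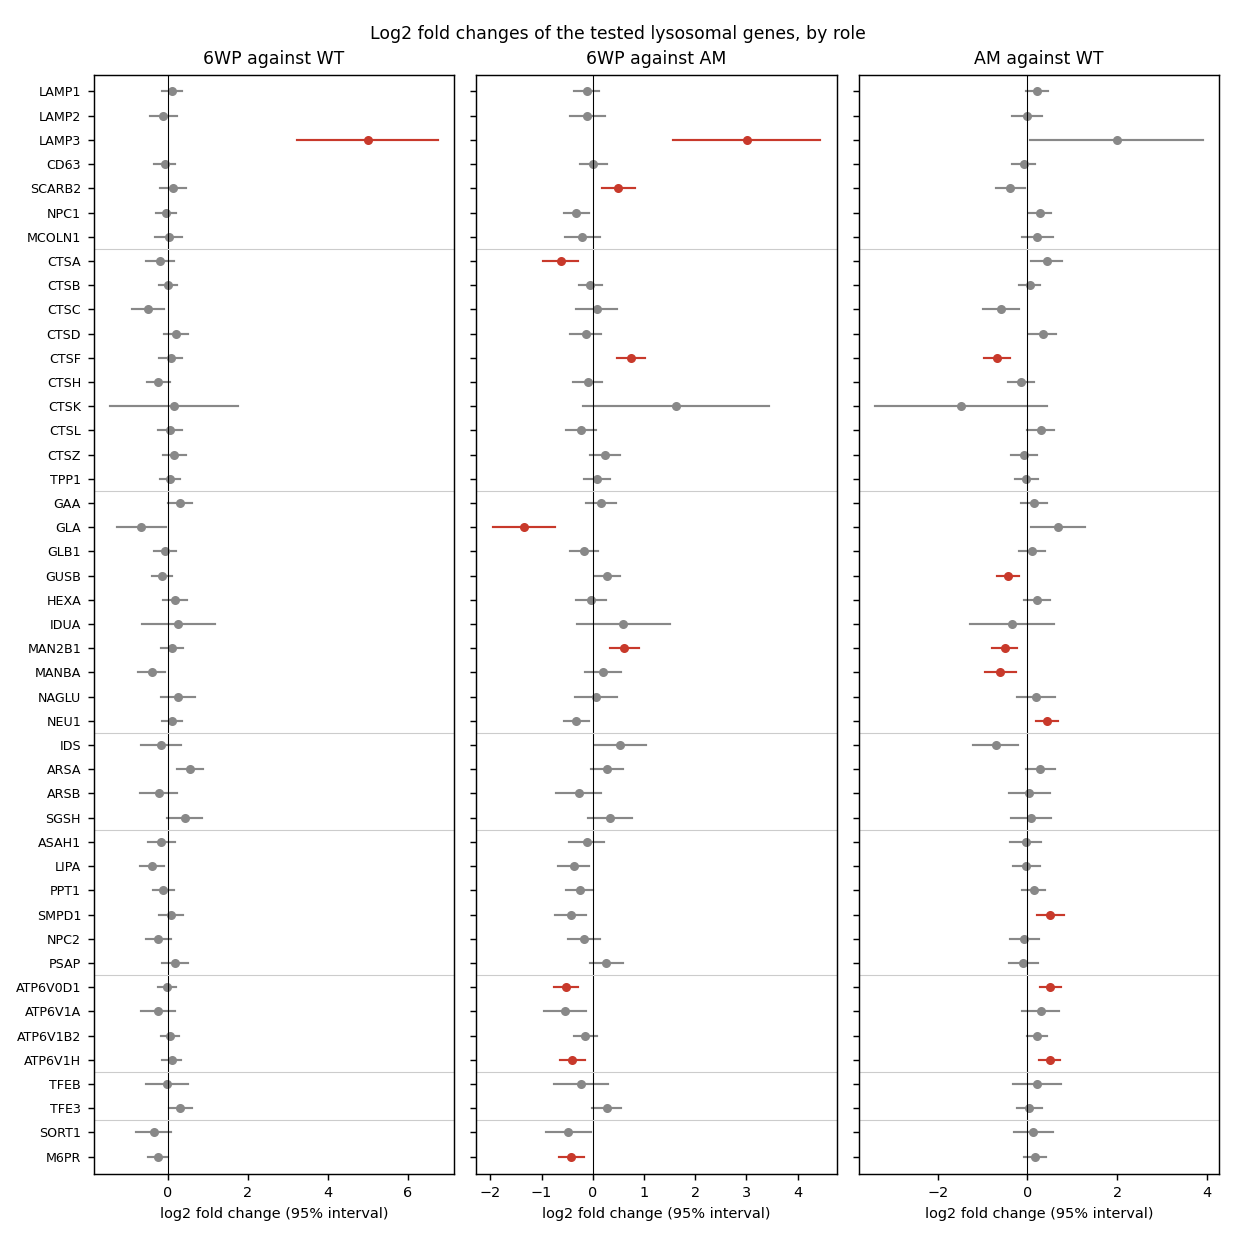
Log2 fold change with 95% interval (x axes, with different ranges) of the 45 tested lysosomal genes, in rows by role, in 1 panel per comparison. Red marks an adjusted p under 0.05 in the edgeR test and grey lines separate the roles. In 6WP against WT, LAMP3 stands alone at 5.0 and the others lie between -0.67 and 0.56.

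Among the other membrane proteins, LAMP1 and LAMP2, the abundant glycoproteins of the lysosomal membrane, did not pass in any comparison. LAMP1 measured 150 and 154 CPM in WT, 184 and 168 in AM, and 155 and 170 in 6WP cells, and LAMP2 measured 121 and 120, 128 and 113, and 96.4 and 127 CPM. Their log2 fold changes for 6WP against WT were 0.09 (95% interval -0.15 to 0.34) and -0.11 (95% interval -0.45 to 0.23). The intervals of these relatives of LAMP3 lie below that of LAMP3 itself. CD63 was between 682 and 772 CPM in all libraries. SCARB2, the receptor that carries beta-glucocerebrosidase to lysosomes (chr4:76158737-76234536), measured 354 and 340 CPM in WT, 270 and 262 in AM, and 324 and 429 in 6WP cells. SCARB2 was higher in 6WP than in AM cells by 0.50 log2 (SE 0.14, edgeR adjusted p = 0.0397), with no overlap, and its 6WP and WT libraries overlapped. The cholesterol exporter NPC1 (log2 fold change of -0.33 for 6WP against AM, edgeR adjusted p = 0.0607) and the calcium channel MCOLN1, whose promoter stretch is shown above, did not pass in any comparison.

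Of the 10 tested proteases, CTSF and CTSA passed in at least 1 comparison. In 6WP against AM 1 was higher and 1 lower (background 11.7% and 9.68%), and in AM against WT 1 was lower (background 9.93%). The cysteine protease CTSF (chr11:66563464-66568879) measured 102 and 101 CPM in WT, 60.3 and 66.7 in AM, and 97.4 and 116 in 6WP cells. Only the AM libraries were low, and the WT and 6WP libraries overlapped. Relative to WT, CTSF was lower in AM cells, with a log2 fold change of -0.68 (SE 0.12, edgeR adjusted p = 0.0118) and higher in 6WP than in AM cells by 0.75 (SE 0.12, edgeR adjusted p = 0.00754). For 6WP against WT its value was 0.07 (95% interval -0.21 to 0.35).

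The serine carboxypeptidase CTSA, which also protects beta-galactosidase and neuraminidase, measured 72.4 and 69.1 CPM in WT, 94.9 and 95.4 in AM, and 71.1 and 52.2 in 6WP cells. It was lower in 6WP than in AM cells, with a log2 fold change of -0.63 (SE 0.15, edgeR adjusted p = 0.0240), while AM against WT gave 0.43 (edgeR adjusted p = 0.0837). Exons of CTSA (chr20:45890144-45898949) overlap those of PLTP and NEURL2 on the opposite strand, and since the strand setting of the counting is not given, reads of the genes may be shared. The dipeptidyl peptidase CTSC had the largest log2 fold change of the proteases for 6WP against WT, -0.50 (95% interval -0.91 to -0.10, edgeR adjusted p = 0.146). CTSK, the collagenolytic cathepsin of osteoclasts, had the largest values against AM, 1.63 for 6WP against AM and -1.48 for AM against WT, from 4 to 27 reads per library, and did not pass. CTSB, CTSD, CTSH, CTSL, CTSZ and TPP1 had log2 fold changes between -0.24 and 0.34 over the 3 comparisons and did not pass.

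Among the 10 glycosidases, MAN2B1, GUSB, MANBA, NEU1 and GLA passed in at least 1 comparison, in different directions. In 6WP against WT 0 passed (background 1.63% higher and 1.37% lower). In 6WP against AM 1 was higher and 1 lower (background 11.7% and 9.68%). In AM against WT 1 was higher and 3 were lower (background 7.74% and 9.93%). The alpha-mannosidase MAN2B1 (chr19:12646511-12666742) measured 49.4 and 56.4 CPM in WT, 37.3 and 36.9 in AM, and 53.5 and 60.4 in 6WP cells. As with CTSF, only the AM libraries were low, with a log2 fold change of -0.51 for AM against WT (SE 0.12, edgeR adjusted p = 0.0284) and 0.62 for 6WP against AM (SE 0.12, edgeR adjusted p = 0.0135). Its exons overlap those of 2 unnamed loci on the same strand.

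The beta-mannosidase MANBA (chr4:102630770-102760994) measured 32.8 and 32.6 CPM in WT, 22.1 and 20.9 in AM, and 21.3 and 27.9 in 6WP cells, and was lower in AM than in WT cells (log2 fold change -0.60, SE 0.15, edgeR adjusted p = 0.0322). Unlike MAN2B1, it was below the WT libraries in all 4 later libraries, and its 6WP and AM libraries overlapped. It shares exonic sequence with the pseudogene LRRC37A15P on the same strand. The beta-glucuronidase GUSB (chr7:65960684-65982215) measured 75.5 and 79.1 CPM in WT, 59.2 and 55.0 in AM, and 67.6 and 71.2 in 6WP cells, and was lower in AM than in WT cells (log2 fold change -0.44, SE 0.11, edgeR adjusted p = 0.0301).

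The sialidase NEU1 (chr6:31857659-31862905) went the other way, at 91.2 and 83.5 CPM in WT, 115 and 122 in AM, and 96.9 and 91.8 in 6WP cells. Relative to WT it was higher in AM cells, by 0.44 log2 (SE 0.11, edgeR adjusted p = 0.0298), and 6WP against AM gave -0.33 (edgeR adjusted p = 0.0633). The alpha-galactosidase GLA (chrX:101393273-101408012) measured 34.9 and 29.6 CPM in WT, 51.5 and 52.2 in AM, and 26.8 and 13.9 in 6WP cells. It was lower in 6WP than in AM cells by a log2 fold change of -1.35 (SE 0.26, edgeR adjusted p = 0.0130), the largest fall in the list that passed the threshold, and the 6WP replicates differed by 0.94 log2. GLA exons overlap those of the ribosomal protein gene RPL36A on the opposite strand. For 6WP against WT, GLA gave -0.67 (95% interval -1.27 to -0.06, edgeR adjusted p = 0.192). GAA, GLB1, HEXA, IDUA and NAGLU did not pass in any comparison. GAA, the glycogen-degrading glucosidase with 2 copies of CACGTG in its promoter stretch, had a log2 fold change of 0.30 for 6WP against WT (95% interval 0.01 to 0.59, edgeR adjusted p = 0.216).

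**Figure D3:**
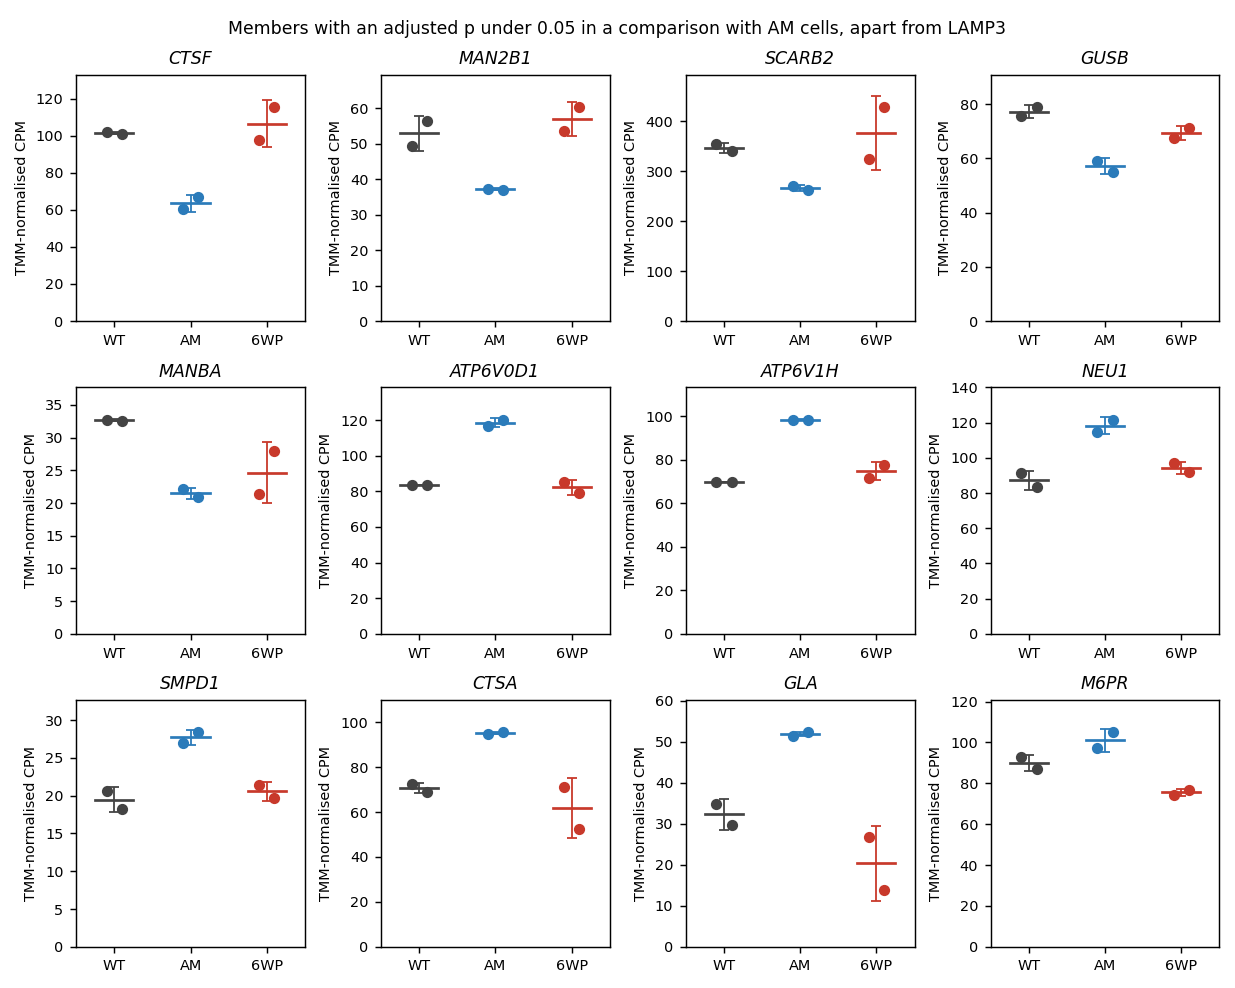
TMM normalised CPM (linear axes from 0) of the 12 genes other than LAMP3 that passed in a comparison with AM cells, in each library of the WT, AM and 6WP groups. Points are libraries, horizontal bars are means and error bars are SD (n = 2). For CTSF, MAN2B1, SCARB2 and GUSB the AM libraries are the lowest, for ATP6V0D1, ATP6V1H, NEU1, SMPD1, CTSA, GLA and M6PR they are the highest, and for MANBA the WT libraries are the highest.

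None of the 4 sulfatases passed in a comparison. Over all tested genes, 1.63% were called higher and 1.37% lower in 6WP against WT. The shares were 11.7% and 9.68% in 6WP against AM, and 7.74% and 9.93% in AM against WT. ARSA, the arylsulfatase that degrades sulfatide, measured 18.6 and 22.1 CPM in WT, 23.4 and 26.0 in AM, and 30.9 and 29.0 in 6WP cells. Its groups did not overlap, and it had the largest positive log2 fold change after LAMP3 for 6WP against WT, 0.56 (SE 0.14, 95% interval 0.24 to 0.88, edgeR adjusted p = 0.0743). The DESeq2 Wald test called ARSA in this comparison, as it did 7.59% of all tested genes. No other alternative that kept both 6WP libraries called it. When 1 library was left out, its log2 fold change ran from 0.44 to 0.69. The iduronate sulfatase IDS had the largest values against AM, 0.54 for 6WP against AM (edgeR adjusted p = 0.114) and -0.71 for AM against WT (edgeR adjusted p = 0.0588). Its 6WP libraries stood at 58.2 and 92.4 CPM, and the lower of them fell within the AM range of 45.0 to 58.9. ARSB and the heparan sulfatase SGSH had log2 fold changes between -0.28 and 0.42.

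In lipid handling, the sphingomyelinase SMPD1 (chr11:6390440-6394998) measured 20.7 and 18.3 CPM in WT, 27.0 and 28.4 in AM, and 21.5 and 19.7 in 6WP cells. AM cells held more SMPD1 than WT cells, by 0.51 log2 (SE 0.13, edgeR adjusted p = 0.0358), and 6WP against AM gave -0.43 (edgeR adjusted p = 0.0518). LIPA, the acid lipase that releases cholesterol and fatty acids, had the largest value of this role for 6WP against WT, -0.40 (95% interval -0.70 to -0.10, edgeR adjusted p = 0.130). It measured 61.1 and 59.7 CPM in WT, 60.1 and 58.8 in AM, and 50.8 and 40.8 in 6WP cells. The ceramidase ASAH1, the thioesterase PPT1, the cholesterol carrier NPC2 and PSAP had log2 fold changes between -0.25 and 0.27 and did not pass.

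Of the proton pump subunits, ATP6V0D1 and ATP6V1H passed in both comparisons with AM cells, each higher in AM than in the other group. Over all tested genes, 7.74% were called higher in AM against WT and 9.68% lower in 6WP against AM. ATP6V0D1, of the membrane sector (chr16:67438014-67481181), measured 83.5 and 83.5 CPM in WT, 117 and 120 in AM, and 85.4 and 79.2 in 6WP cells. ATP6V1H, of the cytosolic sector (chr8:53715543-53843558), measured 69.7 and 69.8, 98.5 and 98.3, and 71.7 and 77.7 CPM. In AM against WT they were higher by 0.51 (SE 0.10, edgeR adjusted p = 0.0163) and 0.50 log2 (SE 0.10, edgeR adjusted p = 0.0183), respectively. In 6WP against AM their log2 fold changes were -0.53 (SE 0.10, edgeR adjusted p = 0.0128) and -0.40 (SE 0.10, edgeR adjusted p = 0.0305). In 6WP against WT they were -0.02 (95% interval -0.26 to 0.22) and 0.10 (95% interval -0.14 to 0.34). The subunits ATP6V1A and ATP6V1B2 did not pass. ATP6V1A had the largest value of the role for 6WP against AM, -0.54 (edgeR adjusted p = 0.0662), with 6WP libraries at 146 and 220 CPM.

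TFEB and TFE3, which bind the CACGTG sequence, did not pass in any comparison. TFEB measured 9.24 and 10.3 CPM in WT, 9.99 and 12.7 in AM, and 11.6 and 7.65 in 6WP cells, and its groups overlapped in every comparison. TFE3 measured 26.6 and 25.5, 27.5 and 26.3, and 34.1 and 30.6 CPM. Its 6WP libraries were above the others, with a log2 fold change of 0.31 for 6WP against WT (95% interval 0.03 to 0.59, edgeR adjusted p = 0.187). The activity of both factors is known to be set largely by their phosphorylation and location in the cell, which RNA-seq does not measure. Of the 5 genes with TCACGTGA, ATP6V0D1 was called higher in AM against WT (background 7.74%). ATP6V0D1 and CTSA were called lower in 6WP against AM (background 9.68%). LAMP1, MCOLN1 and GAA did not pass in any comparison. Whether the sequence goes with these changes was not tested.

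Of the sorting receptors, M6PR (chr12:8940361-8949761), the cation-dependent mannose 6-phosphate receptor, measured 92.8 and 87.1 CPM in WT, 97.0 and 105 in AM, and 74.4 and 76.7 in 6WP cells. It was lower in 6WP than in AM cells by a log2 fold change of -0.42 (SE 0.11, edgeR adjusted p = 0.0278), and 6WP against WT gave -0.25 (95% interval -0.50 to -0.01, edgeR adjusted p = 0.210). M6PR exons overlap those of PHC1 on the opposite strand. SORT1, or sortilin, gave -0.35 for 6WP against WT (edgeR adjusted p = 0.318) and -0.48 for 6WP against AM (edgeR adjusted p = 0.106), and its 6WP libraries stood at 50.8 and 33.1 CPM.

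The 6WP libraries differed by more than 0.5 log2 CPM for 9 of the 45 genes, compared with 2 in WT and 2 in AM cells. Over all tested genes the shares were 25.1% in 6WP, 7.84% in WT and 8.87% in AM cells. LAMP3 (2.07), GLA (0.94), SORT1 (0.61), TFEB (0.60) and NAGLU (0.54) were higher in replicate 1, while CTSK (-1.64), IDUA (-0.76), IDS (-0.67) and ATP6V1A (-0.59) were higher in replicate 2. The median difference of the list from the WT mean was -0.04 in 6WP replicate 1 and 0.05 in 6WP replicate 2, so the library with the most LAMP3 was not the one with the higher median of the list. In AM replicate 1 and AM replicate 2 the same median was 0.08 and 0.11. In RNA from bulk cultures, a change in the share of cells that express a gene and a change in RNA per cell cannot be told apart.

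**Figure D4:**
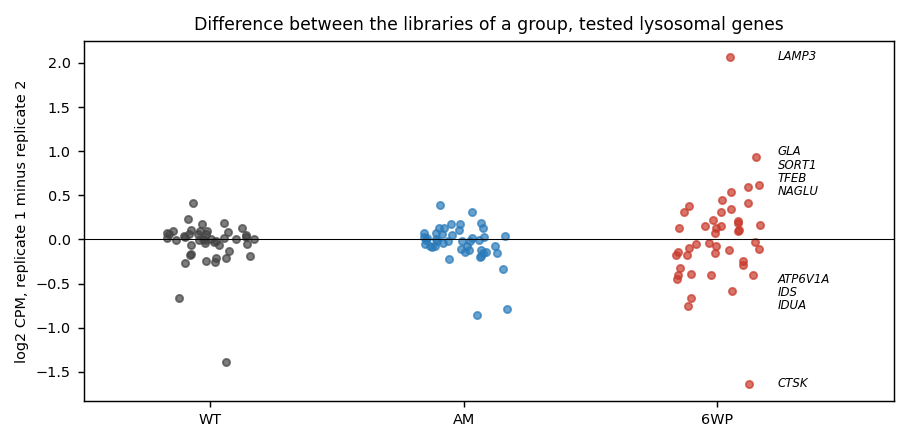
Difference in log2 CPM between replicate 1 and replicate 2 (y axis) of each group for the 45 tested lysosomal genes, each point being 1 gene, with sideways scatter for legibility. Genes that differ by more than 0.5 in the 6WP group are named near their height. LAMP3 lies highest at 2.07 and CTSK lowest at -1.64.

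A further 105 lysosomal genes outside the list, of which 97 were tested, were examined in the same fit. In 6WP against WT, 1 was called higher (background 1.63%) and 1 lower (background 1.37%). The higher one was ATP6V1G1, a proton pump subunit that measured 113 and 105 CPM in WT, 156 and 166 in AM, and 159 and 160 in 6WP cells (log2 fold change 0.55 for 6WP against WT, edgeR adjusted p = 0.0359). ATP6V1G1 was also higher in AM relative to WT, by 0.57 log2 (edgeR adjusted p = 0.0120), and 6WP against AM gave -0.01. The lower one was the amino acid transporter SLC36A1, at 39.8 and 39.4 CPM in WT, 30.1 and 30.5 in AM, and 24.8 and 27.1 in 6WP cells (log2 fold change -0.61, edgeR adjusted p = 0.0378). In 6WP against AM 5 of the 97 were higher (background 11.7%) and 8 lower (background 9.68%), and in AM against WT 8 were higher (background 7.74%) and 5 lower (background 9.93%). These genes were not refitted under the alternatives. Their median log2 fold change was 0.0078 for 6WP against WT, -0.14 for 6WP against AM, and 0.10 for AM against WT.

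Among them were 16 tested proton pump subunits, of which 1 was higher and 4 were lower in 6WP against AM (background 11.7% and 9.68%), and 4 were higher and 1 was lower in AM against WT (background 7.74% and 9.93%). The membrane sector subunit ATP6V0E2 measured 151 and 164 CPM in WT, 250 and 287 in AM, and 164 and 152 in 6WP cells. AM cells held more ATP6V0E2 than WT cells, by 0.77 log2 (edgeR adjusted p = 0.00733), and 6WP against AM gave -0.76 (edgeR adjusted p = 0.00623). ATP6V0C, which forms the proton-conducting ring, had log2 fold changes of 0.66 (edgeR adjusted p = 0.0202) and -0.47 (edgeR adjusted p = 0.0487) in these comparisons. The 1 subunit called higher in 6WP against AM was ATP6V1E2, whose log2 fold change of 1.05 was the largest of the 16 there. The largest change outside the list was that of the peptidase CPQ, at 4.73 and 4.27 CPM in WT, 1.29 and 1.74 in AM, and 4.45 and 5.74 in 6WP cells, with log2 fold changes of -1.55 for AM against WT (edgeR adjusted p = 0.00985) and 1.73 for 6WP against AM (edgeR adjusted p = 0.00595). The galactosidase-like GLB1L moved likewise, with -0.96 (edgeR adjusted p = 0.0118) and 0.92 (edgeR adjusted p = 0.0117). The adaptor subunit AP1G1 was lower in 6WP than in AM cells, with a log2 fold change of -0.47. Exons of GLB1L, ATP6V1E2, AP1G1 and ATP6V0E2 overlap those of genes on the opposite strand. Those of ATP6V0E2 and ATP6V0C also overlap unnamed loci on the same strand, so reads may be shared, as for CTSA.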

How the data were processed

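RNA-seq of 22Rv1 cells was analysed in 3 groups of 2 libraries. The authors deposited a table of whole-number read counts, 1 row per symbol, with no scaling applied. Per the paper's methods, single end reads of 100 bases were aligned to hg38 with STAR 2.5.3a and assembled with StringTie 1.3.3. The submitters' processing notes also name featureCounts 1.5.3, without its role. The kit was stranded, but the strand setting of the counting and the gene annotation are not given in the sources used here.

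From these counts, edgeR 4.0.16 in R 4.3.3 was run with TMM scaling and filterByExpr with the 3 groups, which kept 14672 of 29804 symbols. A quasi-likelihood fit to all 6 libraries was tested two-sided for 3 comparisons, with Benjamini-Hochberg adjustment over all tested genes and a threshold of 0.05. CPM are TMM normalised, and 95% intervals come from the fit. Replicates are labelled biological, and p-values measure the spread between these libraries. Transcript lengths and gene positions came from GENCODE, and promoters from RefSeq.

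The members and lists were chosen with earlier results of these data known, so no set test was made. LAMP3 and each member past the threshold are given in every library. The member with the largest change per role and comparison, TFEB, TFE3, and up to 5 called genes with the smallest p per comparison from the further lysosomal genes are named, of which 1 is not reported here. Per-library values of other genes, and the change of ATP6V1E2, were added after they were seen. Alternatives were DESeq2 1.42.0 (size factors and Wald test), upper quartile scaling, other filters, a fit to only 2 groups, a replicate block, and each library left out. The test was checked on simulated data.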

Additional observations from a re-analysis of the deposited data

How the results depend on the processing

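No called gene changed direction under any alternative (0 reversals over 135 gene comparisons). In 36 of the 135, the sign of the log2 fold change differed from the main fit under at least 1 alternative, without a call. All 18 calls were lost under at least 1 alternative, and 55 other comparisons gained a call under at least 1. For 6WP against WT (1 gene called), the DESeq2 Wald test called 2 (7.59% of all genes), a fit to only the 2 groups 0 (0.661%), and fits without 1 library between 0 and 14 (0 to 26.0%). For 6WP against AM (9 called) these were 14 (23.8%), 5 (9.07%), and between 0 and 27 (0.775% to 45.8%). For AM against WT (8 called), a fit to only the 2 groups called 20 (46.5%), and fits without 1 library between 0 and 21 (0.448% to 44.7%). The median log2 fold change of the list, without 1 library, ran from -0.064 to 0.039 for 6WP against WT. Upper quartile scaling moved it to -0.019 for 6WP against AM and 0.0098 for AM against WT, shifting the median of all genes by 0.09 and -0.09. LAMP3 for 6WP against WT fell short with only the 2 groups fitted (4.99) and ran from 3.60 to 5.67 without 1 library, and for 6WP against AM from 1.61 to 3.65. For AM against WT it passed without a filter (1.99, edgeR adjusted p = 0.0486) and with only the 2 groups fitted (1.99), and ran from 1.44 to 2.33 without 1 library. Where 1 library of a group was left out, the other was assumed to vary like the rest.

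Deviations of same-numbered libraries correlated at 0.04 (WT and AM), 0.09 (WT and 6WP) and -0.02 (AM and 6WP), so no shared replicate effect was seen. Whether same-numbered cultures were handled together cannot be told from these values. With a replicate block, 1 gene was called and LAMP3 had a log2 fold change of 4.85 for 6WP against WT. For 6WP against AM these were 9 and 2.69, and for AM against WT 9 and 2.16. With 2 libraries a group, a gene that did not pass may still differ by any value within its interval.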
